A study of Mus musculus with 16 samples.

Results

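A pair of transcripts from the 3′ ends of Mis12 and Agfg1 were followed across the livers of 16 C57BL/6J mice. They were picked out of 51024 listed long non-coding transcripts by their ID, NONMMUT010559.2 at Mis12 and NONMMUT001706.2 at Agfg1. Both were chosen by their FPKM values in these same libraries, in which they split the diet groups cleanly. Their levels are therefore given as a description, with no test. The 2 other listed transcripts that overlap the body of either gene, both at Agfg1, were taken as neighbours.

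All mice were C57BL/6J, and each library came from 1 liver. One group of 4 received high-fat feed with resveratrol, a plant polyphenol, at 100 mg/kg per day by gavage. Another 4 received high-fat feed with metformin, a drug that lowers blood glucose, at 200 mg/kg per day by gavage. The next 4 received high-fat feed alone and the last 4 ordinary feed. The age label reads postnatal day 21 in all groups, without saying whether that is when feeding began or when the livers were taken. The labels mention no gavage vehicle in the high-fat and ordinary-feed groups, and no sex, cage or batch. The titles of the high-fat samples carry 1 common prefix, against 3, 3 and 2 prefixes in the resveratrol, metformin and ordinary-feed groups. The sources used here do not explain the prefix, and if it marks a cage or litter, its effect cannot be told apart from that of high-fat feed.

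Mis12 encodes the subunit that gives its name to the Mis12 complex, a part of the kinetochore that joins centromeric chromatin to the proteins that grip microtubules during cell division. Agfg1, also known as Hrb, encodes a protein with an Arf GTPase-activating domain and phenylalanine-glycine repeats that acts as an adaptor in clathrin-mediated endocytosis, where it binds Eps15 and the fusion protein VAMP7. The 3′ UTR of a messenger RNA holds binding sites for regulatory proteins and microRNAs, and many genes end their messages at more than one place. The end is set by a polyadenylation signal, most often the hexamer AATAAA or its variant ATTAAA, which lies a short way before the cut. A listed transcript that lies wholly within such an end may be an RNA of its own or may only count reads of the longer messenger RNA. These cannot be told apart here. Both transcripts lie wholly within exons of their genes, no coding gene is listed, and no source used here says how strand was handled. In whole liver, fewer cells with the RNA cannot be told apart from less RNA per cell.

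The Mis12 transcript covers chr11:71025492-71027369 (GRCm38), 1878 bases listed as a single block, in the gene ENSMUSG00000040599.13 (chr11:71019611-71027371, plus strand). All of it lies in exons of the coding isoform ENSMUST00000048807.11. The name 3′ UTR fits most of it but not all, since its first 272 bases are coding sequence up to and including the stop codon. The other 1606 bases are 3′ UTR, 85.5% of the transcript, and they stop 2 bases short of that isoform's annotated end. A second coding isoform, ENSMUST00000164220.7, ends earlier and holds 575 bases (30.6%) of the transcript.

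The Agfg1 transcript covers chr1:82896322-82901182, 4861 bases in a single block, in the gene ENSMUSG00000026159.13 (chr1:82839483-82901182, plus strand). It lies entirely in the 3′ UTR of ENSMUST00000189220.6, whose 3′ UTR is 6124 bases long, and it ends on that isoform's last base. The coding isoforms with shorter 3′ ends hold almost none of it. ENSMUST00000113444.7 and ENSMUST00000190052.6 reach 60 bases (1.23%) into it, and ENSMUST00000063380.10 stops before its first base. Reads on this transcript thus fall almost wholly on sequence that only the longest annotated isoform includes. The GC content was 41.6% for the Mis12 transcript and 39.1% for the Agfg1 transcript.

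The sequence is shown at 3 annotated ends that hold a polyadenylation hexamer, 1 where the Mis12 transcript stops and 1 on each side of the start of the Agfg1 transcript. Each annotated end of a coding isoform was searched over its last 50 bases for AATAAA and ATTAAA on the gene's strand, in the GENCODE M21 transcripts (GRCm38). The windows below run 5′ to 3′, with the hexamer in capitals. The first lies at the distal Mis12 end (chr11:71027344-71027371), the second at the Agfg1 end that falls just inside the listed transcript (chr1:82896345-82896374), and the third at a proximal Agfg1 end 647 bases before that transcript starts (chr1:82895644-82895673).
Mis12 distal end: atacctgtaataAATAAAtacttcagta
Agfg1 end inside the transcript: agaattgaaatgATTAAAaagaaatctttg
Agfg1 proximal end: gcaggtgaacaaAATAAAtcttagaaaata
The Mis12 hexamer starts 15 bases before the annotated end and lies inside the listed transcript. The Agfg1 ATTAAA lies 35 bases after the start of the listed transcript and 24 bases before the end of ENSMUST00000113444.7 and ENSMUST00000190052.6. Neither hexamer was in the searched window of the shorter Mis12 end, of the far Agfg1 end or of the ends of ENSMUST00000190046.6 and of ENSMUST00000063380.10, which stops 43 bases before the listed transcript starts. The last searched end, that of ENSMUST00000187899.6, held ATTAAA before the listed transcript. For comparison, 49.2% of 51924 coding transcripts with an annotated 3′ UTR hold AATAAA in their last 50 bases, 14.3% hold ATTAAA and 60.7% hold either. A match is a run of letters and not a measured cut site.

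**Figure D1:**
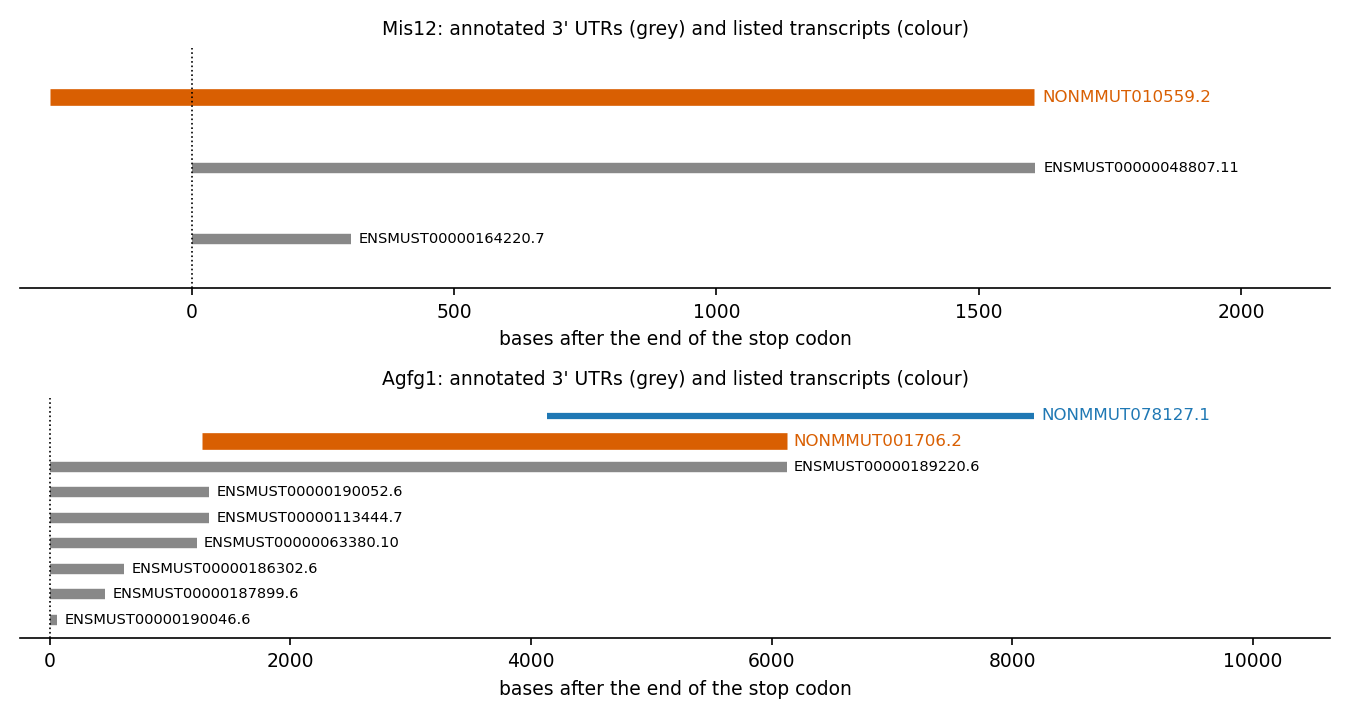
Position of the listed transcripts against the annotated 3′ UTRs of coding isoforms (grey), in bases after the end of the stop codon (x axis), for Mis12 (top) and Agfg1 (bottom). The first 272 bases of the Mis12 transcript lie in the coding sequence, whereas the Agfg1 transcript covers sequence held by 1 isoform alone except for its first 60 bases; the thin blue bar is the span of the multi-part neighbour NONMMUT078127.1, whose inner parts the files do not give.

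Library totals worked back from the FPKM values were 17.2 to 31.1 M reads (M for mega). Reads summed over the listed transcripts, which may overlap one another, came to 15.7% to 23.6% of these totals. Values are FPKM, reads divided by the transcript's length in kb and by the library's reads in M, as the authors computed them, and 1 read on a 1 kb transcript was worth 0.0321 to 0.0580 FPKM. High-fat library 4 stood apart from the other 15: the median over features of its ratio to the geometric mean of all libraries was 0.734, against 0.900 to 1.14. The members' ratios and the calls that changed without it are given beside the results. Coding genes are not listed in these files, so the tissue could be checked only on non-coding features at marker genes. The features at 6 of 12 hepatocyte markers summed to 73.2 to 111 FPKM with resveratrol, 70.3 to 93.4 with metformin, 58.7 to 85.3 on high fat and 47.5 to 79.2 on ordinary feed. Most of that came from the features at Serpina1a and Hnf4a, which averaged 62.7 and 11.1 FPKM over the 16 libraries, while those at Ttr (0.0989), Apob (0.0723) and Foxa2 (0.776) were low, and Alb, Apoa1, Cyp2e1, Tat, Apoh and Fgb had none. Features at other cell types' markers summed to at most 1.63 FPKM per list in any library, but the Kupffer and cholangiocyte lists each rested on 1 feature (Adgre1 and Sox9), so the check is a weak one.

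The Mis12 transcript was at a low level in every high-fat liver and at a high level in all the others. It measured 4.86, 6.20, 8.90 and 6.58 FPKM in the resveratrol livers and 8.40, 5.23, 2.45 and 7.02 FPKM in the metformin livers. In the livers on high fat alone it measured 0.211, 0.137, 0.163 and 0.121 FPKM, against 4.57, 4.67, 6.36 and 7.59 FPKM on ordinary feed. The 4 high-fat libraries lie below all 12 others and the other 3 groups overlap one another. Behind these values stood 193 to 348 reads per library with resveratrol, 106 to 371 with metformin, 5 to 9 on high fat and 148 to 287 on ordinary feed. Reads on the transcript were thus few rather than absent on high fat. The 29 reads over the 4 libraries correspond to 0.157 FPKM (exact Poisson 95% interval 0.105 to 0.225, counting error only). The source of these reads was not tested.

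Group means of the Mis12 transcript were 6.63 ± 1.68 FPKM with resveratrol, 5.77 ± 2.57 with metformin, 0.158 ± 0.0394 on high fat and 5.80 ± 1.45 on ordinary feed (SD, n = 4 each). The mean with resveratrol was 41.9 times that on high fat and the mean with metformin 36.5 times. The mean on high fat was 36.7 times lower than that on ordinary feed. Without high-fat library 4 the high-fat mean was 0.170 ± 0.0378 FPKM (SD, n = 3) and these ratios were 38.9, 33.9 and 34.0. The log2(FPKM + 1) scale understates the change of low values. On it the changes were 2.70 for resveratrol against high fat, 2.45 for metformin against high fat and -2.53 for high fat against ordinary feed. These comparisons share the 4 high-fat libraries, so they are not separate observations of the low level. The order of the means from the highest was resveratrol, ordinary feed, metformin and high fat, and the first 3 of these differ by less than their SDs: the resveratrol mean was 1.15 times the metformin mean and 1.14 times the ordinary-feed mean, and the metformin mean 0.995 times the ordinary-feed mean. Metformin livers varied most, with a coefficient of variation of 44.5%, against 24.9% to 25.4% in the other groups. Metformin library 3, at 2.45 FPKM, was the lowest outside the high-fat group.

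The Agfg1 transcript split the groups elsewhere: it was high on ordinary feed alone and low in all 12 livers on high-fat feed, with or without a drug. It measured 0.0875, 0.103, 0.0988 and 0.0808 FPKM with resveratrol and 0.0787, 0.140, 0.0892 and 0.0647 FPKM with metformin. In the livers on high fat alone it measured 0.0908, 0.112, 0.0360 and 0.0563 FPKM, against 2.42, 2.35, 2.73 and 3.52 FPKM on ordinary feed. No high-fat-fed library, drug-treated or not, came near the ordinary-feed range. Read numbers were 9 to 12 per library with resveratrol, 7 to 12 with metformin, 4 to 17 on high fat and 203 to 345 on ordinary feed. Here too the low level was above 0 in every library.

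Group means of the Agfg1 transcript were 0.0925 ± 0.0102 FPKM with resveratrol, 0.0932 ± 0.0328 with metformin, 0.0739 ± 0.0342 on high fat and 2.76 ± 0.538 on ordinary feed (SD, n = 4 each). The ordinary-feed mean was 29.8 times the resveratrol mean, 29.6 times the metformin mean and 37.3 times the high-fat mean, or 34.6 times without high-fat library 4. On the log2(FPKM + 1) scale the changes against ordinary feed were -1.77 with resveratrol, -1.77 with metformin and -1.80 on high fat. These changes share the ordinary-feed libraries. The order of the means from the highest was ordinary feed, metformin, resveratrol and high fat. The last 3 of these did not differ beyond their spread: the resveratrol mean was 1.25 times and the metformin mean 1.26 times the high-fat mean, with overlapping libraries and changes of 0.03 each on the log2 scale. At 4 to 17 reads a library, the depth allows no finer ranking of these 3 groups. The transcript passed the filter for testing (4 or more libraries at 1 FPKM or above) through the ordinary-feed livers alone.

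**Figure D2:**
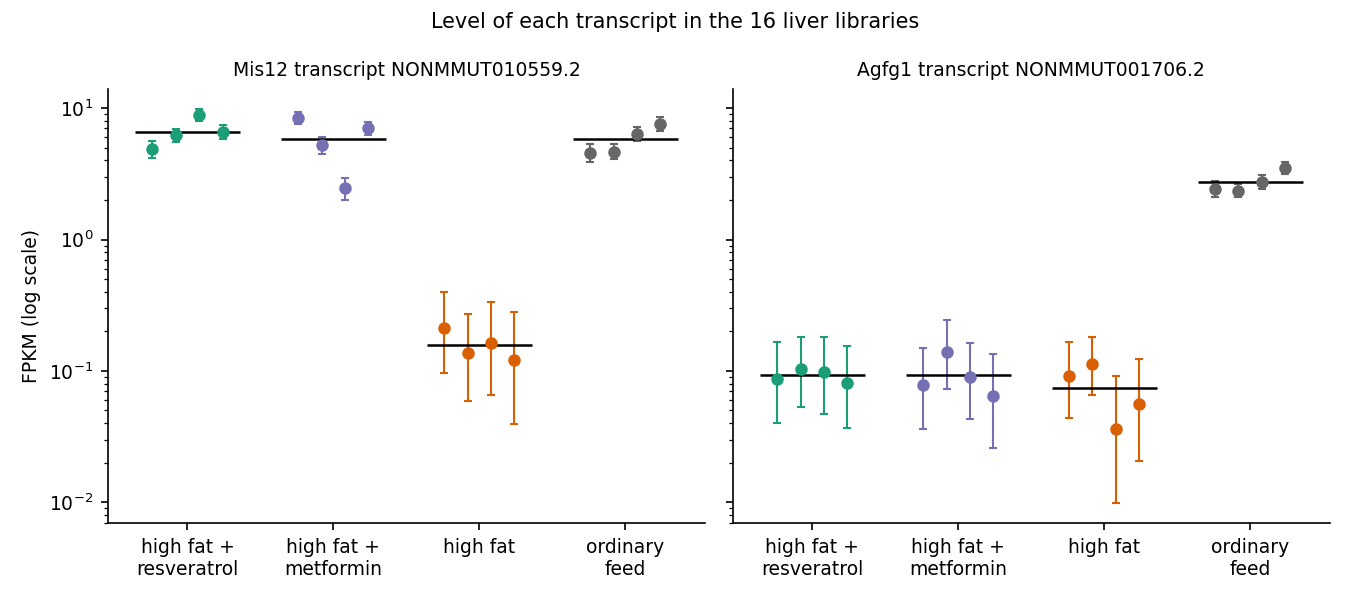
FPKM (log scale) of the Mis12 transcript (left) and the Agfg1 transcript (right) in each of 16 libraries, by group; points are libraries, bars exact Poisson 95% intervals from the reads, which cover counting error only, and black lines group means (n = 4). The Mis12 transcript lies at 0.121 to 0.211 FPKM in the high-fat livers and at 2.45 FPKM or more elsewhere, while the Agfg1 transcript lies at 2.35 FPKM or more on ordinary feed and at 0.140 FPKM or less elsewhere.

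In the livers given a drug with the high-fat feed, the Mis12 transcript was thus within or near the ordinary-feed range and the Agfg1 transcript at the level of high fat alone. Between the lowest high and the highest low library, metformin library 3 and high-fat library 1, the Mis12 transcript had a gap of 11.6 times. For the Agfg1 transcript the gap was 16.8 times, between ordinary-feed library 2 and metformin library 2. Within the high level, the Mis12 transcript ranged 3.64-fold over 12 libraries and the Agfg1 transcript 1.50-fold over 4. Over the 16 libraries the levels of both transcripts had a Pearson correlation of 0.32 on the log2(FPKM + 1) scale, a description of libraries that fall into separate levels.

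Separation of the groups as such was common among the 7413 features tested (Ensembl transcripts summed per gene, other transcripts as listed), but wide gaps between the groups were not. Between high fat and ordinary feed, 17.3% of tested features were lower in all high-fat livers, as both members were. Higher in all 4 resveratrol than in all 4 high-fat livers, as the Mis12 transcript was, were 6.91% of features, and for metformin against high fat 2.56%. Lower in all drug-treated livers than on ordinary feed, as the Agfg1 transcript was, were 5.52% for resveratrol and 10.5% for metformin. The high-fat group lay below all 12 other libraries for 56 features, but only for the Mis12 transcript did the gap reach 2-fold. The ordinary-feed group lay above all 12 other libraries for 190 features, and only for the Agfg1 transcript did the gap reach 2-fold. Both members were chosen because they split the groups cleanly in these libraries. Their standing alone on these sides therefore restates the choice and is no separate result. On the opposite side, the ordinary-feed group lay below all 12 other libraries for 49 features, with a gap of at least 2-fold for 4 of them. With each library divided by its median ratio the gaps were 12.4 times for the Mis12 transcript and 17.8 times for the Agfg1 transcript. No other feature then reached 2-fold on the 2 sides where the members stand. Without high-fat library 4, which sets neither gap, the shares of features without overlap were 18.8% for high fat below ordinary feed, 7.70% for resveratrol above high fat and 3.49% for metformin above high fat.

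**Figure D3:**
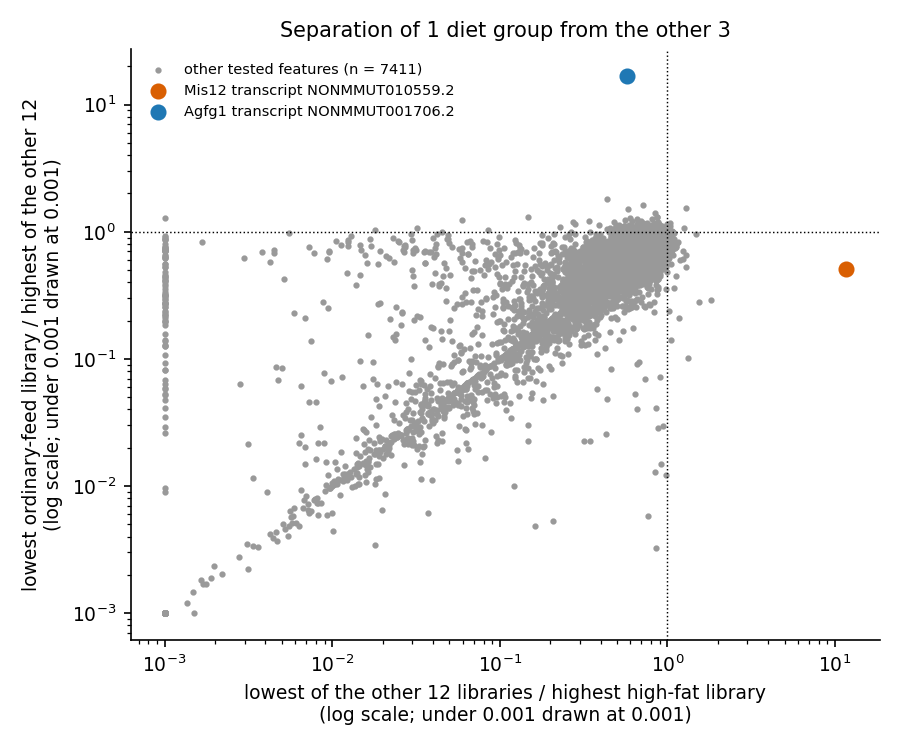
Separation of 1 group from the other 3 for each of 7413 tested features on log axes: the lowest of the 12 other libraries over the highest high-fat library (x axis), and the lowest ordinary-feed library over the highest of the 12 others (y axis). Values above 1 mean no overlap. The Mis12 transcript (orange) stands at 11.6 on the x axis and the Agfg1 transcript (blue) at 16.8 on the y axis, apart from the other features. Both were chosen for such a split, so their place in the plot restates the choice.

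Wide jumps between libraries that did not run along whole diet groups were frequent. With values under 0.01 FPKM set to 0.01, 531 tested features (7.16%) had a jump of at least 10 times between neighbouring values of the 16 in order. Where a library had no reads, the jump is measured from this floor and can rest on very few reads of a short transcript. In 221 of them at least 4 libraries stood on each side of the jump. The low libraries came from at least 3 of the 4 groups in 212 of these 221, the Agfg1 transcript among them. That outcome is fixed wherever the low libraries are too many for 2 groups to hold, so no conclusion on diet is drawn from it. In 2 of the 221 the jump ran along whole groups, and these were the Mis12 and the Agfg1 transcripts, which had been chosen for that property.

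Features whose levels ran most alike with each transcript over the 16 libraries were taken by Pearson correlation on the log2(FPKM + 1) scale, as a description, since all share the libraries, their depth and the diet groups. For the Mis12 transcript the first was NONMMUT005347.2, which overlaps Slc16a10, a transporter of aromatic amino acids (r = 0.89). It averaged 7.14 FPKM with resveratrol, 5.26 with metformin, 2.62 on high fat and 6.82 on ordinary feed, with a narrower difference between the groups than the Mis12 transcript. Next came NONMMUT140349.1 at Cep68 (0.89), which encodes a centrosome protein, NONMMUT059409.2 at the transcription factor gene Sox5 (0.86), NONMMUT023555.2 at the repressor gene Zhx2 (0.86) and NONMMUT047232.2, 4.95 kb from Acnat1 (0.85).

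For the Agfg1 transcript the first was the non-coding gene C430039J01Rik, which lies in Pik3c2a, a lipid kinase gene (r = 0.94). It averaged 0.659 FPKM with resveratrol, 0.647 with metformin, 0.588 on high fat and 1.53 on ordinary feed. The others were NONMMUT024114.2 at Txn2, the mitochondrial thioredoxin gene (0.89), NONMMUT024077.2 at the splicing factor gene Rbfox2 (0.88), C230053D17Rik in Trak1, which encodes an adaptor of mitochondrial transport (0.86), and NONMMUT041851.2 at Dido1 (0.86). None of these 10 features had a jump of 10 times between neighbouring values.

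**Figure D4:**
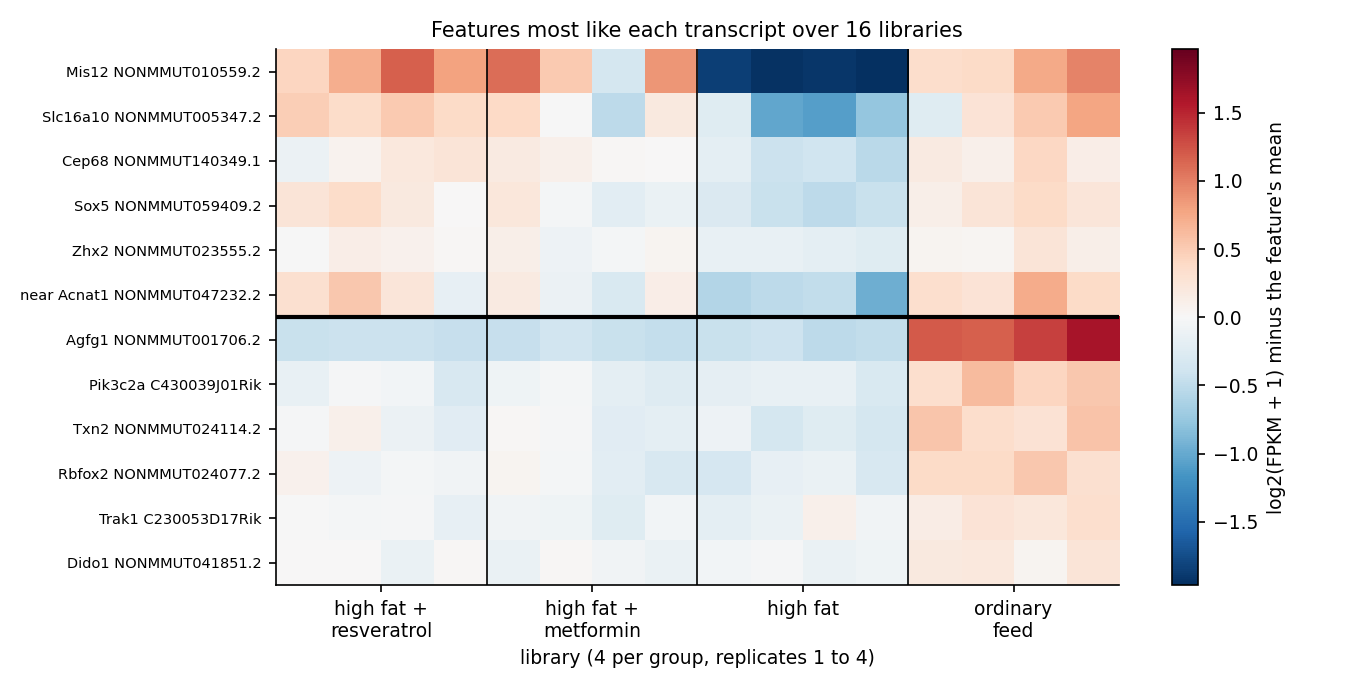
Level of each member and its 5 most alike features as log2(FPKM + 1) minus the feature's mean (colour), in 16 libraries by group (columns). Among the Mis12 features all 4 high-fat libraries lie below the feature's mean (blue), and among the Agfg1 features all 4 ordinary-feed libraries lie above it (red), with the members in the first row of each block showing the widest contrast.

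Around the members, no other listed transcript overlapped the Mis12 gene. The 2 neighbours at Agfg1 carried almost no reads. NONMMUT078126.1, at the 5′ end of the gene (chr1:82837687-82839862), had 0 to 2 reads and was at 0 in 8 libraries, with at most 0.193 FPKM. NONMMUT078127.1 (chr1:82899193-82903242), whose span overlaps the last part of the Agfg1 transcript and runs past the end of the gene, had 0 to 3 reads and was at 0 in 11 libraries, with at most 0.157 FPKM. Summed over 4 libraries it had 0 reads with resveratrol, 1 with metformin, 3 on high fat and 5 on ordinary feed. Both neighbours were under the filter and were not tested, so at this depth they show neither the split of the Agfg1 transcript nor its absence.

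Beyond the gene bodies, 2 listed transcripts lay within 20 kb of Mis12 and 8 within 20 kb of Agfg1. One of the 10 passed the filter and is named because of that: NONMMUT010558.2 (chr11:71012139-71012649), in Derl2, an endoplasmic reticulum degradation gene, 6.96 kb upstream of Mis12. It measured 3.24, 5.23, 4.98 and 4.27 FPKM with resveratrol and 0.915, 0.333, 3.22 and 0.264 with metformin. On high fat it measured 4.49, 3.71, 0.428 and 0.268, against 2.50, 3.74, 4.47 and 0.583 on ordinary feed. High and low libraries occurred within each group except resveratrol, so it did not follow the Mis12 transcript. No comparison of it passed limma's moderated test over all 7413 features: the adjusted p was 0.613 for high fat against ordinary feed, 0.334 for resveratrol against high fat and 0.847 for metformin against high fat. The libraries of resveratrol and metformin did not overlap (log2 change 1.48, SE 0.52), but the limma adjusted p was 0.765.

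Downstream of Agfg1, NONMMUT138665.1 began 2.94 kb past the gene's end and ranged from 0.212 to 1.03 FPKM. NONMMUT001708.2 began 5.72 kb past it and ranged from 0.104 to 0.445 FPKM. Neither showed the break at ordinary feed that the Agfg1 transcript had, with libraries of all groups overlapping. NONMMUT140500.1, 3.34 kb past Mis12, had 0 to 4 reads a library and at most 0.163 FPKM. It did not reach the high level of the Mis12 transcript, and its reads were too few to show a break at a lower level or its absence.

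The pathways of both genes could be followed only through non-coding features that overlap or adjoin other genes, and a gene symbol given with such a feature names its position, not the level of the coding gene. Of 45 kinetochore and centromere genes, 26 had a listed feature, and the features of 4, Mis12 included, passed the filter. Of the 3 others, none rose and 1 fell on high fat against ordinary feed, where limma called 14.6% of all tested features at an adjusted p under 0.05. That was an intronic feature of Zwint, a kinetochore protein that binds Knl1 (NONMMUT006169.2; 1.38 ± 0.528 FPKM on high fat and 2.46 ± 0.385 on ordinary feed, SD, n = 4 each; log2 change -0.56, SE 0.16, limma adjusted p = 0.0295). Without high-fat library 4 the adjusted p was 0.0526, and without ordinary-feed library 1, 3 or 4 it was 0.0615 to 0.0673. Features at Cenph and Cenpx, which encode inner kinetochore proteins, had log2 differences of 0.35 and 0.51 and did not pass (limma adjusted p = 0.202 and 0.201). The median log2 difference of the 3 was 0.35, against -0.16 over all tested features. After each library was divided by its median ratio these medians were 0.51 and -0.04. A median of 3 features carries little weight, and the only one that passed, at Zwint, fell.

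In the other comparisons no kinetochore feature passed: limma called 0.0809% of all tested features for resveratrol against high fat, 0.027% for metformin against high fat, 0.283% for resveratrol against ordinary feed and 0.297% for metformin against ordinary feed. For resveratrol against metformin it called 0% (0 of 7413 at an adjusted p under 0.05, 471 at an unadjusted p under 0.05). The summed level of the 26 kinetochore features, Mis12 included, was 12.7 to 17.9 FPKM with resveratrol, 11.9 to 18.2 with metformin, 7.22 to 9.63 on high fat and 12.2 to 17.0 on ordinary feed. Without the Mis12 transcript the other 25 summed to 7.85 to 9.90 FPKM with resveratrol, 7.30 to 9.76 with metformin, 7.01 to 9.47 on high fat and 7.60 to 9.37 on ordinary feed, and all 4 groups overlapped. Of the dividing-cell markers Mki67, Top2a, Ccnb1 and Cdk1 only Mki67 and Cdk1 had a feature, and these summed to at most 0.0760 FPKM in any library; the part of cell division in the level of the Mis12 transcript was not tested.

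Of 32 genes of Arf GTPases, their activating proteins and partners of AGFG1, 23 had a listed feature and 16 were tested, Agfg1 included. Of the 15 others none rose and 2 fell on high fat against ordinary feed, a share near the 14.6% of all tested features that limma called in either direction. They were a spanning feature at Arf1, the small GTPase that recruits vesicle coats (NONMMUT009963.2; 2.29 ± 0.0721 FPKM on high fat and 3.38 ± 0.328 on ordinary feed; log2 change -0.41, SE 0.11, limma adjusted p = 0.0268), and an intronic feature of Eps15l1, an endocytic adaptor related to Eps15 (NONMMUT066129.2; 1.23 ± 0.155 FPKM on high fat and 1.85 ± 0.321 on ordinary feed; -0.35, SE 0.11, limma adjusted p = 0.0408; SD, n = 4 per group). Both calls were lost when each library was divided by its median ratio, with limma adjusted p = 0.223 for the Arf1 feature and 0.232 for the Eps15l1 feature. The Arf1 call also depended on libraries 2 and 3 of both groups, and missed the threshold without any one of these 4 (0.0503 to 0.0688). The Eps15l1 call was lost without any of the 4 high-fat libraries, without ordinary-feed library 1, 3 or 4 or without resveratrol library 1 (0.0517 to 0.104).

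Features at Eps15, the partner of AGFG1 in coated pits, and at Agfg2, its paralog, had log2 differences of -0.58 and -0.50 on high fat against ordinary feed and did not pass (limma adjusted p = 0.0607 and 0.0676). The feature at Arf2, a GTPase close to Arf1, had a difference of 0.05 (limma adjusted p = 0.844). None of the 15 passed in the other comparisons. The median log2 difference of the 15 on high fat against ordinary feed was -0.27, against -0.16 over all tested features. Division by the median ratios brought these medians to -0.14 and -0.04, and none of the 15 then passed. Without Agfg1, the other 22 features of the list summed to 28.9 to 36.8 FPKM with resveratrol, 31.8 to 39.9 with metformin, 26.1 to 36.6 on high fat and 35.8 to 47.8 on ordinary feed. On high fat against ordinary feed, limma called 1085 of all tested features as deposited, 210 higher and 875 lower. After division by the median ratios it called 853, 382 higher and 471 lower. The same scaling left the means of the Mis12 transcript at 6.23, 5.67, 0.168 and 5.36 FPKM in the resveratrol, metformin, high-fat and ordinary-feed groups, and those of the Agfg1 transcript at 0.0873, 0.0896, 0.0793 and 2.55 FPKM.

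**Figure D5:**
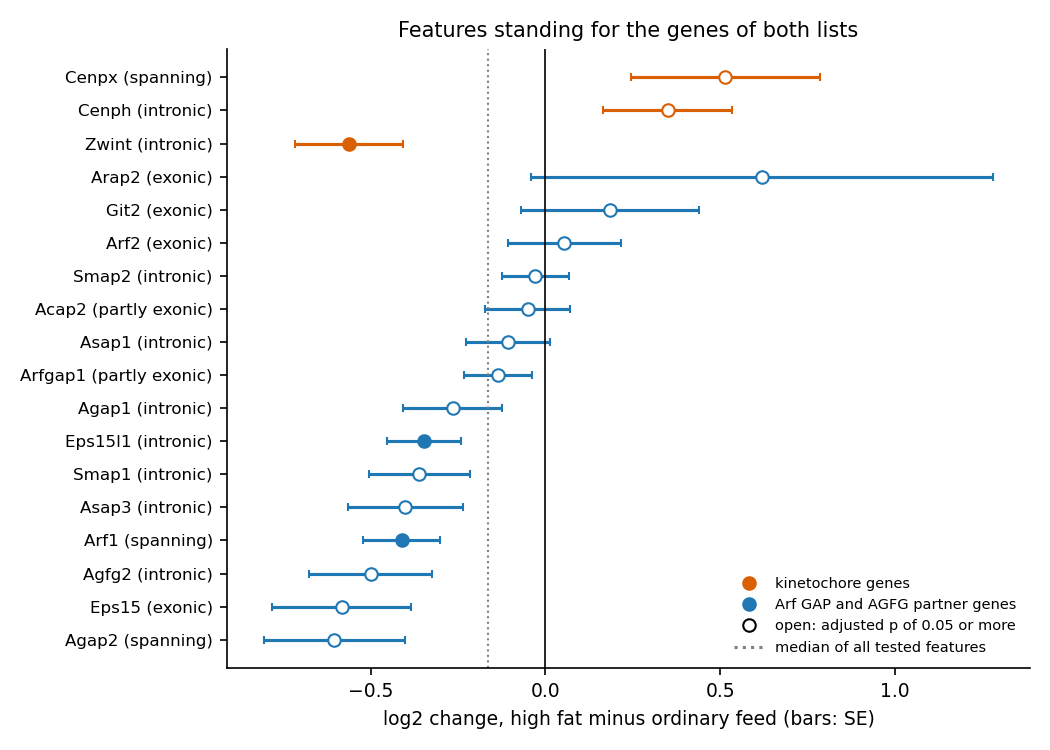
Log2 change on high fat against ordinary feed (x axis, bars SE) of the features standing for 3 kinetochore genes (orange) and 15 Arf GAP and AGFG partner genes (blue), the members left out; filled points have a limma adjusted p under 0.05 and the dotted line is the median of all tested features, -0.16. The filled points are Zwint, Eps15l1 and Arf1, all to the left of 0 as deposited; after division by the median ratios the changes of Arf1 and Eps15l1 no longer pass.

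Of the hepatocyte markers, 3 had a tested feature, and on high fat against ordinary feed 1 of them rose and 1 fell, where limma called 14.6% of all tested features. A spanning feature at Cps1, the entry enzyme of the urea cycle, fell to 0.162 ± 0.0317 FPKM on high fat, against 2.35 ± 1.63 on ordinary feed (NONMMUT001352.2; log2 change -1.36, SE 0.30, limma adjusted p = 0.0126). That call was lost with no filter on low values (limma adjusted p = 0.0556) and had a limma adjusted p = 0.0303 without high-fat library 4. Without ordinary-feed library 1 this feature came nearest to the Mis12 transcript's pattern, with a gap of 5.82 times between the high-fat and the other livers. A spanning feature at Hnf4a, a transcription factor of hepatocytes, rose to 13.3 ± 1.77 FPKM on high fat, against 6.09 ± 3.46 on ordinary feed (NONMMUT110083.1; 1.13, SE 0.29, limma adjusted p = 0.0231; SD, n = 4 each). That call was lost without high-fat library 4 or ordinary-feed library 1, 2 or 3 (limma adjusted p = 0.0510 to 0.0568). In both features the part of cell composition was not tested.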

How the data were processed

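RNA of 16 livers was sequenced as 1 library each (Trizol total RNA, TruSeq kit, NovaSeq, per the labels' protocols). The authors deposited 1 FPKM value per listed transcript and library. Per the submitters' processing notes, the tools were Cufflinks 2.1.1 and Bowtie 0.12.2 and the genome GRCm38 (mm10). No source used here names the annotation, the use of strand or any filter. Multiplied by transcript length, the values of a library were whole multiples of what 1 read is worth (100% of values after rounding, tolerance 0.05 of a read), which gave reads per transcript and library totals. Ensembl transcripts were summed per gene through GENCODE M21 (6306 of 6326 matched), which left 49988 features.

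Features with at least 1 FPKM in at least 4 libraries (7413) were tested on log2(FPKM + 1) with limma 3.58.1 (trend option, R 4.3.3), in 1 fit of 4 groups with 12 residual degrees of freedom, Benjamini-Hochberg adjusted, for 6 comparisons. No count test was run. Each p-value weighs a difference of group means against the spread between these libraries within groups, moderated over all features, and covers no other source of error. The test was tried on simulated counts that had the same extra spread in every feature and no shift of a whole library. That trial therefore does not cover shifts such as that of high-fat library 4, and nothing here rests on it. Median ratios to the geometric-mean library used 19824 features. Positions are those of GENCODE M21 coding genes; a spanning feature is multi-part, with an interval that overlaps the gene. Intervals are exact Poisson, and cover counting error only.

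The members, the gene lists and the alternatives were chosen with earlier results of these data known. Named were the members, their neighbours, the 5 features most alike to each member, and list features that passed, at most 4 per direction; each gene was stood for by its overlapping feature with the highest mean FPKM. Features at Cenph, Cenpx, Eps15, Agfg2, Arf2 and Derl2, and those downstream, were named after their values were seen. Replicates were numbered in sample order and pair nothing. Alternatives were a pseudocount of 0.1, no filter, median-ratio scaling and leaving out each library.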

Additional observations from a re-analysis of the deposited data

Results flagged for a closer look

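In 2 of 32 groups of 4 libraries, over 8 features named in the text, a single library stood far from the other 3; chance gives about 1 in 20 groups. The intronic feature of Zwint (NONMMUT006169.2) measured 0.598 FPKM in high-fat library 4, against 1.57 to 1.73 FPKM in the other high-fat libraries. This is the library with the lowest median ratio of all 16. The spanning feature at Hnf4a (NONMMUT110083.1) measured 19.9 FPKM in metformin library 2, against 12.6 to 13.5 FPKM in the other metformin libraries. Neither the Mis12 nor the Agfg1 transcript had such a library in any group.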

How the results depend on the processing

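In the comparisons whose groups do not overlap, the direction of both transcripts is fixed and the alternatives bear only on its size. Where groups overlap, the sign was not always fixed. The Mis12 change ran from -0.0509 to 0.431 for resveratrol against metformin and from -0.265 to 0.217 for metformin against ordinary feed. For Agfg1 the change of resveratrol against metformin ran from -0.0129 to 0.0199. The values that follow are for groups that do not overlap. A pseudocount of 0.1 widened the log2 changes of the Mis12 transcript to 4.68 (resveratrol against high fat), 4.39 (metformin against high fat) and -4.49 (high fat against ordinary feed), and those of the Agfg1 transcript to -3.87, -3.88 and -4.04 for resveratrol, metformin and high fat against ordinary feed. Leaving out 1 library gave 2.56 to 2.81, 2.26 to 2.75 and -2.62 to -2.41 for the same Mis12 comparisons, and -1.82 to -1.68, -1.82 to -1.68 and -1.85 to -1.70 for the Agfg1 ones.

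Counts of called features moved more. Without a filter limma called 274 features on high fat against ordinary feed, 2 for resveratrol and 4 for metformin against high fat. It then called 2 for resveratrol against metformin, and 2 for resveratrol and 7 for metformin against ordinary feed. Median-ratio scaling gave 16 for resveratrol and 9 for metformin against high fat, and 42 for metformin against ordinary feed. A pseudocount of 0.1 gave 13 for resveratrol and 14 for metformin against ordinary feed. With 1 library left out the counts ranged from 539 to 1181 for high fat against ordinary feed, 1 to 57 for resveratrol and 1 to 9 for metformin against high fat, 0 to 1 for resveratrol against metformin, and 1 to 38 for resveratrol and 2 to 260 for metformin against ordinary feed. Without high-fat library 4 they were 605, 1, 9, 0, 38 and 260 in the same order. Without a filter the calls at Zwint, Arf1, Eps15l1, Cps1 and Hnf4a were lost (limma adjusted p = 0.127, 0.134, 0.173, 0.0556 and 0.103). The causes of these shifts were not tested. No paired analysis was possible because the labels give no replicate numbers that the groups share. Depth limits the low levels, which rest on 4 to 17 reads a library, and the Agfg1 neighbours, which rest on 0 to 3.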
